A study of Mus musculus with 33 samples.

Results

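The collagen and laminin chains are the 55 genes of the deposited expression table whose symbols name a collagen alpha chain (Col, a type number, a and a chain number) or a laminin alpha, beta or gamma chain. They were taken by symbol alone, with the condition that RPKM (reads scaled by gene length and an adjusted library total) was above 0 in at least 1 of 13 RNA-seq libraries. The 55 chains, 44 collagen and 11 laminin, are part of 25239 genes in the table, of which 20720 were above 0. A chain entered the tests when it reached 1 RPKM in at least 2 libraries, which 33 of the 55 did, among 12546 genes in all. The 22 others stayed low in all libraries. Col27a1, a fibrillar chain, was the highest of them and reached 1.13 RPKM in a single library.

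Collagens are trimers of alpha chains that form fibrils, networks or membrane-bound rods outside the cell, and laminins are trimers of an alpha, a beta and a gamma chain. Under an endothelium both meet in the basement membrane, where the type IV collagen network and the laminin polymer are joined by nidogen and perlecan and are bound by integrins. The fibrillar chains of types I, III and V are mainly known from interstitial matrix made by mesenchymal cells, and those of types II, IX and XI from cartilage.

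The study measured endothelial cells of mice in which extra copies of Runx1, a transcription factor that starts blood cell formation from embryonic endothelium, were induced. Cells negative for CD41, CD45 and Ter119 and positive for CD31, VEC and low to positive for cKIT were sorted from E9.5 embryos and E13.5 fetuses, taken whole, and from livers of adult mice of 4 to 6 weeks. In the labels the 1Runx1 groups carry Cre and 1 CKI allele (Cre; CKI/+), the 2Runx1 groups carry Cre and 2 (Cre; CKI/CKI), and the Ctrl groups carry CKI/+ at E9.5 and CKI/CKI or CKI/+ at E13.5 and in liver, with no Cre named. All groups received 2 mg of tamoxifen, by injection 24 h before harvest for embryos and by oral gavage for adults. The strain was C57BL/6J-129Sv/J, crossed with superovulated B6C3F1 females at E9.5. The labels do not name the promoter that drives Cre. RNA-seq covered E9.5 Ctrl and 1Runx1, E13.5 1Runx1 and 2Runx1, and liver Ctrl and 2Runx1 with 2 libraries each, and E13.5 Ctrl with 1. For E13.5 Ctrl, with its 1 library, the fit takes the spread of the other groups, and the contrasts at E13.5 share this library. The labels do not say whether the 2 libraries of a group came from separate animals, so a p-value here reflects the spread between these libraries alone, which may be technical. Cre and the added copies of Runx1 came together against Ctrl, and stage came together with tissue, E9.5 cross and tamoxifen route, so that these cannot be told apart.

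Whole reads recovered from the RPKM steps came to between 37754246 and 44540403 a library. Runx1 itself stood at 0.904 to 1.53 RPKM in the 5 Ctrl libraries and at 14.9 to 78.4 in the 8 others, with no overlap. It was at 14.9 and 16.2 in E9.5 1Runx1 and at 28.9 and 23.7 in E13.5 1Runx1. In 2Runx1 it was at 22.7 and 25.2 at E13.5 and at 78.1 and 78.4 in liver. At E13.5 the 2Runx1 libraries were thus not above the 1Runx1 libraries in Runx1 RNA. The 12 endothelial marker genes were above 0 in each library and summed to between 2100 and 2250 RPKM at E9.5, 2720 to 2940 at E13.5 and 5400 to 5970 in liver. Markers of other cells were also detected. The 12 mesenchyme and fibroblast genes summed to between 39.0 and 85.7 RPKM. The 6 cartilage genes lay at 179 to 223 at E9.5, mostly Hapln1, at 29.1 to 47.4 at E13.5 and at 4.35 to 8.47 in liver. The macrophage genes lay at 698 to 821 in liver, led by Mrc1, which liver sinusoidal endothelium also expresses. All 7 were called higher in liver Ctrl than in E13.5 Ctrl, against 40.6% of all genes. Lyz2 was at 55.7 and 60.1 RPKM against 6.43, and C1qb at 56.4 and 53.1 against 5.8. The 8 hepatocyte genes, led by Trf, summed to 18.5 to 34.5 at E9.5, 180 to 262 at E13.5 and 126 to 137 in liver. The part of these cells in the levels below was not tested, and in bulk libraries fewer cells of a type and less RNA per cell cannot be told apart.

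A few chains held most of the signal. The summed RPKM of the 55 chains was 1120 to 1260 at E9.5, 1410 to 1670 at E13.5 and 874 to 1040 in liver. Col4a1 and Col4a2, the pair that forms the common type IV collagen network of basement membranes, made up 41.7 to 43.7% of that sum at E9.5, 45.4 to 49.9% at E13.5 and 63.2 to 65.4% in liver. The chains of highest level were Col18a1, Col4a1, Col4a2 and Lamb1 at E9.5, Col4a1, Col18a1, Col4a2 and Lama4 at E13.5, and Col4a1, Col4a2, Col13a1 and Lamb2 in liver. Only 5 chains reached 100 RPKM in any library, and these were Col4a1, Col4a2, Col18a1, Col13a1 and Lama4. The heat map of the tested chains shows this order and the break between embryo and liver.

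**Figure D1:**
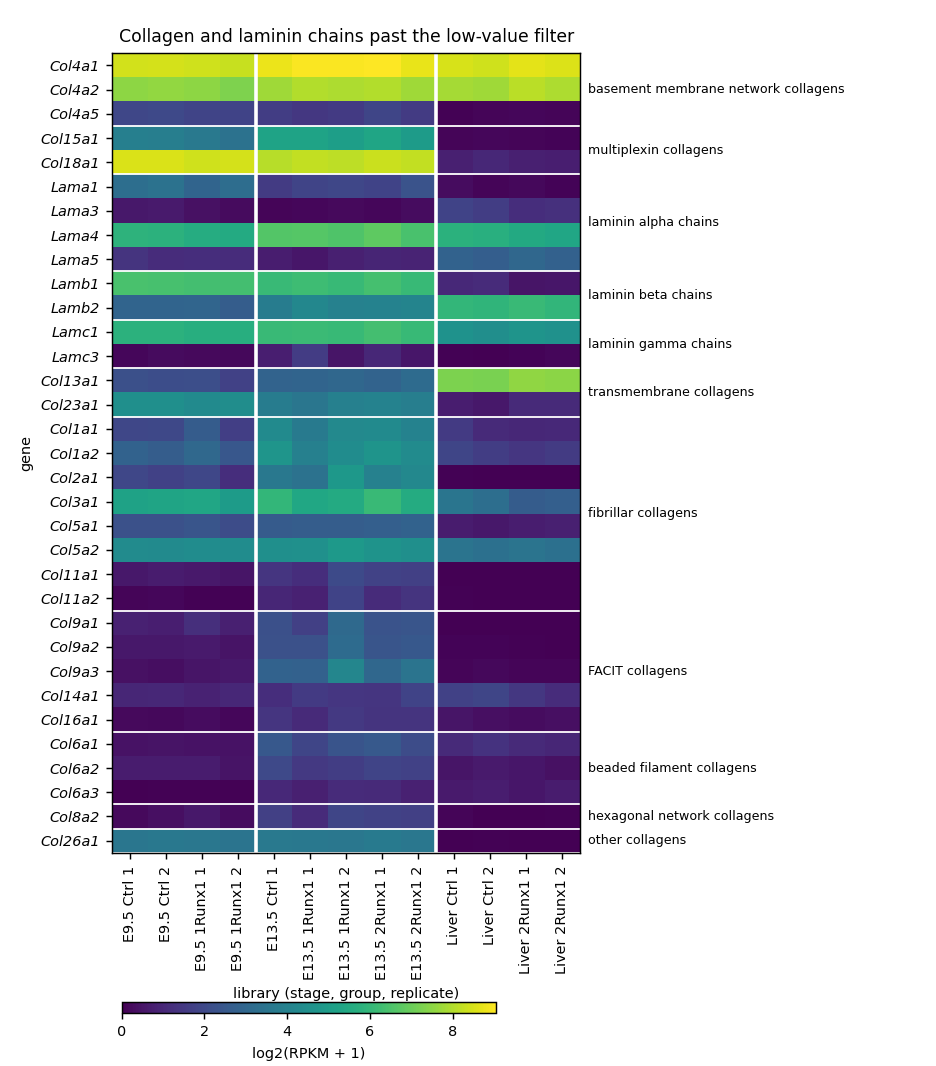
Levels of the 33 tested collagen and laminin chains in the 13 RNA-seq libraries, as log2(RPKM + 1) by colour, with genes as lines grouped by class and libraries as columns ordered by stage and group. Col4a1 and Col4a2 are bright in each library, while Col18a1, Col15a1 and Lamb1 are bright in the embryo columns and dark in the 4 liver columns.

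Col4a1 and Col4a2 are neighbours on chromosome 8 that start back to back. In GRCm38, Col4a1 (ENSMUSG00000031502) covers chr8:11198423-11312889 and Col4a2 (ENSMUSG00000031503) chr8:11312805-11449287, so that the spans overlap. The starts in the promoter table used below, 11312826 and 11312805, lie 21 bases apart on opposite strands. The library kit does not mark the strand, so reads from overlapping or antisense genes cannot be told apart. Col4a1 was at 345 and 357 RPKM in E9.5 Ctrl, 444 in E13.5 Ctrl, and 362 and 336 in liver Ctrl. Col4a2 was at 182 and 190, at 215, and at 228 and 216 in the same libraries. The levels of both genes thus stayed within a narrow band over the stages, in contrast to most other chains. Col4a1 was higher in E13.5 Ctrl than in E9.5 Ctrl (log2 difference of log2(RPKM + 1) 0.34 ± 0.11 SE, limma adjusted p = 0.0276) and lower in liver than at E13.5 (-0.35 ± 0.11, adjusted p = 0.0144). Both calls rest on single libraries, since the first gave adjusted p = 0.0983 without E9.5 Ctrl replicate 1 and 0.0601 without replicate 2, and the second 0.0695 without liver Ctrl replicate 2. Col4a2 passed only between liver and E9.5 (0.25, adjusted p = 0.0195), and without E9.5 Ctrl replicate 1 (adjusted p = 0.0968) or liver Ctrl replicate 1 (0.105) it did not. The ratio of Col4a1 to Col4a2 RPKM was 1.88 to 1.99 at E9.5, 1.95 to 2.1 at E13.5 and 1.5 to 1.59 in liver, where the 4 libraries lay below all 9 embryo libraries. Col4a5, which belongs to a type IV network of other basement membranes, was at 1.74 to 2.99 RPKM in the embryo and at 0.0337 to 0.107 in liver, and its partner Col4a6 stayed below the filter, as did Col4a3 and Col4a4.

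The laminin beta chains stood in opposite proportion in embryo and liver. Lamb1 (ENSMUSG00000002900, chr12:31265146-31329644) encodes the beta 1 chain, and Lamb2 (ENSMUSG00000052911, chr9:108479847-108490530) the beta 2 chain, which takes the same place in the trimer. Lamb1 was at 87.7 and 84.2 RPKM in E9.5 Ctrl, 81.1 and 80.7 in E9.5 1Runx1, 68.8 in E13.5 Ctrl, 74.4 and 67.6 in E13.5 1Runx1, 82.7 and 68.2 in E13.5 2Runx1, 1.04 and 1.15 in liver Ctrl, and 0.425 and 0.462 in liver 2Runx1. Lamb2 was at 6.62 and 6.55, at 6.67 and 5.4, at 12.8, at 17.2 and 14.6, at 15.1 and 15.9, at 62.4 and 59.9, and at 68.6 and 61.7 RPKM in the same groups. The 9 embryo libraries were thus all high for Lamb1 and low for Lamb2, and the 4 liver libraries the reverse, with no overlap for either gene. Against E13.5, liver Ctrl was lower for Lamb1 (log2 difference -5.06 ± 0.10, limma adjusted p = 3.16e-11) and higher for Lamb2 (2.17 ± 0.12, adjusted p = 2.94e-08). Lamb1 exceeded Lamb2 by 12.2 to 15.0 times at E9.5 and 4.28 to 5.46 times at E13.5, and Lamb2 exceeded Lamb1 by 52.0 to 162 times in liver. The sum of the beta chains moved far less, from 86.3 to 94.5 RPKM at E9.5 and 81.7 to 98.0 at E13.5 to 61.0 to 69.1 in liver. Between E9.5 and E13.5, Lamb2 was already higher (0.86 ± 0.12, adjusted p = 0.000218) and Lamb1 lower (-0.32 ± 0.10, adjusted p = 0.0278), although the Lamb1 call did not hold without E9.5 Ctrl replicate 1 (adjusted p = 0.107) or 2 (0.0576).

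Among the alpha chains, Lama4, the alpha 4 chain typical of endothelial basement membrane, led at each stage. It was at 57.2 and 55.2 RPKM in E9.5 Ctrl, 98.7 in E13.5 Ctrl and 54.6 and 51.2 in liver Ctrl. The E13.5 level stood above both others (0.80 ± 0.12 against E9.5, limma adjusted p = 0.000437, and -0.89 ± 0.12 for liver against E13.5, adjusted p = 5.48e-05), while liver and E9.5 did not pass a test of their difference (-0.09, adjusted p = 0.435). Lama5, the alpha 5 chain of mature vessel walls and epithelia, was at 1.56 and 1.23 RPKM in E9.5 Ctrl, 0.64 in E13.5 Ctrl and 6.14 and 5.6 in liver Ctrl. It was thus lowest at E13.5 and highest in liver (2.07 ± 0.14 for liver against E13.5, adjusted p = 1.97e-07). The lower Lama5 level at E13.5 than at E9.5 (-0.54 ± 0.14, adjusted p = 0.0103) was not called without E9.5 Ctrl replicate 1 (adjusted p = 0.06). The ratio of Lama4 to Lama5 was 36.8 to 45.0 at E9.5, 101 to 219 at E13.5 and 6.23 to 9.14 in liver. Lama1, the alpha 1 chain of early embryonic basement membranes, was at 8.63 and 9.63 RPKM in E9.5 Ctrl, 1.95 in E13.5 Ctrl and 0.243 and 0.0764 in liver Ctrl, so that it was lower at each later stage (-1.78 ± 0.20, adjusted p = 5.03e-05 for E13.5 against E9.5). Lama3, the alpha 3 chain of epithelial laminins, passed 1 RPKM in liver only, with 2.54 and 2.1 RPKM in liver Ctrl against 0.0921 to 0.561 in the embryo. Lamc1, the gamma 1 chain found in most laminins, held 97.0 to 99.7% of the gamma chain sum, at 55.5 and 54.8 RPKM in E9.5 Ctrl, 68.6 in E13.5 Ctrl and 23.3 and 21.4 in liver Ctrl. It was lower in liver than at E13.5 (-1.58 ± 0.10, adjusted p = 8.17e-08), and its higher level at E13.5 than at E9.5 (0.31 ± 0.10, adjusted p = 0.0245) was not called without E9.5 Ctrl replicate 1 (0.0671) or 2 (0.0778).

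Col18a1 and Col15a1, the multiplexins, are basement membrane collagens with long interrupted helices, and Col18a1 is the source of endostatin. Col18a1 (ENSMUSG00000001435, chr10:77052178-77166530) was at 368 and 372 RPKM in E9.5 Ctrl, 339 and 350 in E9.5 1Runx1, 272 in E13.5 Ctrl, 298 and 281 in E13.5 1Runx1, 320 and 297 in E13.5 2Runx1, 0.733 and 1.01 in liver Ctrl, and 0.747 and 0.702 in liver 2Runx1. Col15a1 (ENSMUSG00000028339, chr4:47207655-47313167) was at 14.0 and 13.8 RPKM in E9.5 Ctrl, 36.7 in E13.5 Ctrl, and 0.0881 and 0.125 in liver Ctrl. The chain that ranked first or second in the embryo was thus among the low ones in liver, and Col15a1 was low there too. Col18a1 had the most negative difference of all 33 tested chains between liver and E13.5 (-7.19 ± 0.08, limma adjusted p = 3.33e-12), and Col15a1 the next (-5.09 ± 0.14, adjusted p = 2.29e-10). From E9.5 to E13.5 the 2 chains went in opposite directions, with Col18a1 lower (-0.44 ± 0.08, adjusted p = 0.00165) and Col15a1 higher (1.34 ± 0.14, adjusted p = 4.21e-05). The liver values rest on 131 to 193 recovered reads a library for Col18a1 and on 10 to 22 for Col15a1.

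The transmembrane collagens Col13a1 and Col23a1 also differed in opposite directions. Col13a1 (ENSMUSG00000058806, chr10:61838234-61979206), a plasma membrane collagen of cell adhesion sites, was at 3.61 and 3.4 RPKM in E9.5 Ctrl, 3.56 and 2.4 in E9.5 1Runx1, 6.36 in E13.5 Ctrl, 6.64 and 7.19 in E13.5 1Runx1, 6.34 and 7.93 in E13.5 2Runx1, 154 and 148 in liver Ctrl, and 186 and 179 in liver 2Runx1. The lowest liver library was far above the highest embryo library. Col13a1 was 23.7-fold higher in liver than at E13.5 (4.37 ± 0.15, limma adjusted p = 1.09e-09) and 43.0-fold higher than at E9.5. Col23a1, another membrane collagen, was at 21.8 and 21.8 RPKM in E9.5 Ctrl, 12.9 in E13.5 Ctrl and 0.673 and 0.508 in liver Ctrl. It was lower at each later stage (-0.71 ± 0.14, adjusted p = 0.00211 for E13.5 against E9.5, and -3.13 ± 0.14 for liver against E13.5). Col26a1, a collagen outside the main classes, was at 10.3 to 12.4 RPKM in all 9 embryo libraries and had 0 to 4 recovered reads in each liver library.

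**Figure D2:**
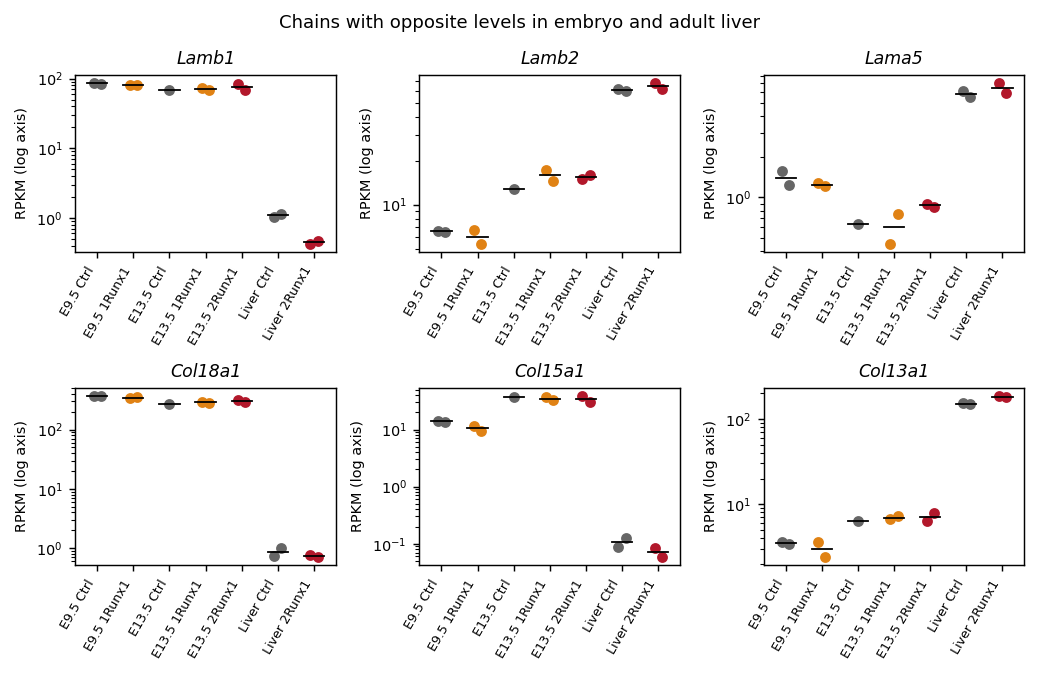
RPKM on a log axis of Lamb1, Lamb2, Lama5, Col18a1, Col15a1 and Col13a1 in the 7 RNA-seq groups (points: libraries; bars: group means; grey Ctrl, orange 1Runx1, red 2Runx1; each panel has its own axis). Lamb1, Col18a1 and Col15a1 drop from embryo to liver, and Lamb2, Lama5 and Col13a1 stand highest in liver.

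Type I and III collagen chains, the bulk of interstitial matrix, were highest at E13.5 among the Ctrl libraries. Col1a1 was at 2.83 and 2.9 RPKM in E9.5 Ctrl, 19.3 in E13.5 Ctrl and 1.87 and 1.12 in liver Ctrl, and Col1a2, its partner in type I collagen, was at 6.25 and 5.32, at 25.1, and at 2.67 and 2.12. Col3a1, the chain of type III fibrils around vessels, was at 36.1 and 38.1, at 62.9, and at 10.6 and 8.77 RPKM. All 3 genes were thus high in the E13.5 library and low in liver. Over all 5 E13.5 libraries Col1a1 was at 12.3 to 19.3 RPKM, Col1a2 at 14.5 to 25.1 and Col3a1 at 40.9 to 68.7. The 4 E9.5 libraries were at 2.22 to 5.22, 4.53 to 7.32 and 30.0 to 39.5, so the Col3a1 ranges nearly met. Against E9.5 the E13.5 level was higher for Col1a1 (2.39 ± 0.34, limma adjusted p = 0.000255), Col1a2 (1.95 ± 0.25, adjusted p = 0.000142) and Col3a1 (0.75 ± 0.21, adjusted p = 0.0135). The Col3a1 call was lost without E9.5 Ctrl replicate 1 (adjusted p = 0.0542). Liver against E13.5 was lower for Col1a1 (-3.04 ± 0.34, adjusted p = 9.19e-06), Col1a2 (-2.95 ± 0.25, adjusted p = 1.02e-06) and Col3a1 (-2.58 ± 0.21, adjusted p = 6.93e-07). Of the 8 tested fibrillar chains, 7 were higher at E13.5 than at E9.5, all but Col5a2, but 3 without E9.5 Ctrl replicate 1 and 4 without replicate 2. All 8 were lower in liver than at E13.5, and 7 without liver Ctrl replicate 2. Of all tested genes, 22.3% were higher at E13.5 than at E9.5 and 38.6% were lower in liver than at E13.5. Col11a1 and Col11a2 reached 1 RPKM at E13.5 only and entered the tests through that stage, so their differences were set by the filter. Of the 12 mesenchyme and fibroblast markers, 7 were higher and 1 lower at E13.5 than at E9.5 (median 0.87). In liver 3 were higher and 9 lower than at E13.5 (median -1.35). Their full sum was 41.1 and 39.0 RPKM in E9.5 Ctrl, 77.6 in E13.5 Ctrl, and 85.7 and 85.5 in liver Ctrl. Unlike the fibrillar chains, that sum was not lower in liver. Their sum without Dcn, decorin, was 40.5 and 38.6 RPKM in E9.5 Ctrl, 65.2 in E13.5 Ctrl, and 23.0 and 22.3 in liver Ctrl, while Dcn alone was at 62.8 and 63.2 in liver Ctrl. Their part in the levels of the fibrillar chains was not tested.

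The chains of types II, IX and XI, the cartilage fibril and its surface collagens, were highest at E13.5. Col2a1 was at 2.8 and 2.34 RPKM in E9.5 Ctrl, 11.4 in E13.5 Ctrl, and 0.0304 and 0.0118 in liver Ctrl, with at most 5 recovered reads in a liver library. Col9a3 was at 0.318 and 0.248 RPKM in E9.5 Ctrl and at 6.24 in E13.5 Ctrl, a difference of 2.50 on the log2(RPKM + 1) scale. Col9a1 and Col9a2 were higher as well (1.40 and 1.67), though Col9a1 was not called without E9.5 Ctrl replicate 2 (limma adjusted p = 0.0509). Only some of the cartilage markers moved with them. The sum of all 6 was lower at E13.5 (29.1 RPKM for Ctrl) than at E9.5 (182 and 179), where Hapln1 held most of it. Matn1, matrilin 1, was at 0.0244 and 0.0114 RPKM in E9.5 Ctrl and 1.44 in E13.5 Ctrl, and Cnmd, chondromodulin, was at 0.0 in both E9.5 Ctrl libraries and at 3.86. Of 5 tested markers 3 were higher and 1 lower at E13.5 than at E9.5, the lower being Hapln1. In liver 4 were lower than at E13.5 and 1 was higher. The higher was Cnmd, at 7.8 and 8.14 RPKM in liver Ctrl, where Col2a1 was near 0. Their sum without Hapln1 was 3.71 and 3.81 RPKM in E9.5 Ctrl, 9.39 in E13.5 Ctrl and 7.98 and 8.26 in liver Ctrl, where Cnmd held most of it. Their part in these chains was not tested. The 3 tested chains of the beaded filaments of type VI collagen, which surround cells and vessels, were highest at E13.5 as well. Col6a1 was at 0.369 and 0.401 RPKM in E9.5 Ctrl, 4.69 in E13.5 Ctrl and 1.12 and 1.52 in liver Ctrl (2.04 ± 0.20 for E13.5 against E9.5, adjusted p = 2.74e-05), and Col6a2 and Col6a3 were higher at E13.5 by 1.30 and 0.98. Col8a2, a hexagonal network chain, and Col16a1, a fibril-associated chain, were higher at E13.5 than at E9.5 by 1.40 and 1.18. Of the 33 tested chains, 10 (30.3%) reached 1 RPKM in a single stage, against 1052 of all tested genes (8.39%). Lama3 did so in liver and the 9 others at E13.5, namely Col6a2, Col6a3, Col8a2, Col9a2, Col9a3, Col11a1, Col11a2, Col16a1 and Lamc3. Such chains entered the tests through the stage where they are high, so a difference in them was set by the filter. The same holds for Col9a1, which outside E13.5 reached 1 RPKM only in E9.5 1Runx1 replicate 1 (1.32).

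Counted over Ctrl libraries, 27 of the 33 tested chains differed between E13.5 and E9.5, 21 higher and 6 lower at E13.5, where 48.8% of all tested genes were called (limma, adjusted p below 0.05), 22.3% higher and 26.4% lower. The median log2 difference of the chains was 0.75 and that of all genes -0.02. Without the genes that reached 1 RPKM in a single stage, 13 of 23 chains were higher and 5 lower at E13.5 (78.3% called, against 49.4% of the remaining genes), with medians of 0.34 and -0.05. Here and below, these 23 still hold Col9a1, which passed the filter through E13.5. Leaving out either E9.5 Ctrl library gave 19 to 20 chains. Besides those named above, Col11a1, Col11a2 and Col5a1 were lost without replicate 1 (adjusted p = 0.0966, 0.112 and 0.103) and without replicate 2 (0.0574, 0.103 and 0.108). Between liver and E13.5, 30 of 33 chains differed, 5 higher and 25 lower in liver, against 79.3% of all genes, 40.6% higher and 38.6% lower, with medians of -1.40 and 0.02. The 5 higher in liver were Col13a1, Lamb2, Lama5, Lama3 (1.60, through liver alone past the filter) and Col14a1 (0.65 ± 0.18, adjusted p = 0.00572), a fibril-associated collagen. For Col14a1 the E13.5 Ctrl library, at 1.26 RPKM, was the lowest of its stage. The E13.5 1Runx1 and 2Runx1 libraries were at 1.66 to 2.53, within the range of the liver libraries (1.21 to 2.72). Between liver and E9.5, 24 of 33 chains differed, 8 higher and 16 lower in liver, against 85.4% of all genes, 42.7% in each direction, with medians of -0.50 and -0.01. Most genes differed between liver and embryo, so the shares of chains called, 90.9% against E13.5 and 72.7% against E9.5, say little by themselves. Without the genes of a single stage, 4 of 23 chains were higher and 18 lower in liver than at E13.5 (95.7% called, against 78.5% of the remaining genes), and 6 were higher and 15 lower in liver than at E9.5 (91.3% against 85.9%). Between liver and E9.5, Col1a1 was lost without E9.5 Ctrl replicate 1 (adjusted p = 0.114) or 2 (0.127) and without liver Ctrl replicate 2 (0.267), and Col9a1 was lost without any 1 of the 4 libraries (adjusted p = 0.107 to 0.126).

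Genes whose proteins bind, build or sense these chains were read from lists, against 48.8% of all genes called between E13.5 and E9.5 and 79.3% between liver and E13.5. Among 20 tested basement membrane partners, 12 were higher and 4 lower at E13.5 than at E9.5 (80.0% called), and 10 were higher and 8 lower in liver than at E13.5 (90%). Tinagl1, a secreted laminin-binding protein, was at 6.51 and 6.6 RPKM in E9.5 Ctrl, 74.5 in E13.5 Ctrl and 1260 and 1240 in liver Ctrl. Ntn4, a netrin that binds laminin gamma chains and breaks up laminin networks, was at 0.274 and 0.264, at 2.24, and at 134 and 129 RPKM. Fn1, fibronectin, went the other way with 301 and 293, with 81.8, and with 1.45 and 1.53 RPKM. Of 24 tested enzymes and chaperones of collagen synthesis and crosslinking, 7 were higher and 10 lower at E13.5 than at E9.5 (70.8%), and 13 were higher and 9 lower in liver than at E13.5 (91.7%). Serpinh1, the collagen chaperone HSP47, was at 700.0 and 680.0 RPKM in E9.5 Ctrl, 548 in E13.5 Ctrl and 69.8 and 71.6 in liver Ctrl, and Bmp1, the procollagen C-proteinase, was lower in liver than at E13.5 by -4.11. Of 11 tested receptors, 3 were higher and 6 lower in liver than at E13.5 (81.8%, near the share of all genes), among them Itga1, the collagen-binding integrin alpha 1 chain (2.6), and Itga6, the laminin-binding alpha 6 chain (-2.18).

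Promoters of 4 of the chains that stood far apart between embryo and liver, and of Col15a1, are shown as the 250 bases before the RefSeq start (GRCm38.p6, from RefSeq), because the open chromatin data below bear on them. They lie at chr12:31265043-31265292 for Lamb1 (plus strand), chr9:108479612-108479861 for Lamb2 (plus strand), chr10:77166531-77166780 for the upstream of 2 Col18a1 starts (minus strand), chr10:61979109-61979358 for Col13a1 (minus strand) and chr4:47207762-47208011 for Col15a1 (plus strand). The starts come from a promoter table and can lie inside the gene span, so a window need not be all upstream of the gene. Of the 55 chains, 40 had such a start, and for 22 it lay close to the first base of the gene span. The Col15a1 window lies wholly inside the gene span given above, and those of Lamb1, Lamb2 and Col13a1 run into theirs. Capitals mark matches on either strand to the searched motifs, which were GGGCGG for the GC box, CCAAT for the box bound by nuclear factor Y, TATAAA for the initiation box, CAGACA for SMAD factors, TGTGGT for RUNX factors, TGANTCA for the factor AP-1 and CCGGAA for ETS factors.
Lamb1: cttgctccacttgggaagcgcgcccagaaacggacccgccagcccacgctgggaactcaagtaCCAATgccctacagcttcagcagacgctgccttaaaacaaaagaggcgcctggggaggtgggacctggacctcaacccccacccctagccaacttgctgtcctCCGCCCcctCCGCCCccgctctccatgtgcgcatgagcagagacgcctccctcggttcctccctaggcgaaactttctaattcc
Lamb2: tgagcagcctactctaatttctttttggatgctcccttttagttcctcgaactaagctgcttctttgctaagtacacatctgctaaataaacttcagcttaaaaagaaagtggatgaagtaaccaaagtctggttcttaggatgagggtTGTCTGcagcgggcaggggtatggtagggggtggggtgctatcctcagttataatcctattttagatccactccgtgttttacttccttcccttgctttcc
Col18a1: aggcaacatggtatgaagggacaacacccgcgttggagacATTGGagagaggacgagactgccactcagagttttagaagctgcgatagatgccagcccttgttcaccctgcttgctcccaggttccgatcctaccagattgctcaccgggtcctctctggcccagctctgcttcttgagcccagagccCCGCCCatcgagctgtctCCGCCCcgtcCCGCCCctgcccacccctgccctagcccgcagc
Col13a1: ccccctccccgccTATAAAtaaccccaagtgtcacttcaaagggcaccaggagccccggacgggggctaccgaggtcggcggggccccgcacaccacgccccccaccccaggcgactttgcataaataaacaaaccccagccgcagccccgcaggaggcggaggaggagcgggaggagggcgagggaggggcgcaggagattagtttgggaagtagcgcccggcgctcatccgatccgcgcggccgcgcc
Col15a1: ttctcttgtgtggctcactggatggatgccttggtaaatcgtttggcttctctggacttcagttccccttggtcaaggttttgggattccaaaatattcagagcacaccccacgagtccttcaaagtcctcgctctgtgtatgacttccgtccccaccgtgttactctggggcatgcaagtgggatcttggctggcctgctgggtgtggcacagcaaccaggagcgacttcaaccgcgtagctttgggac
Lamb1 held 2 GC boxes and 1 CCAAT, Col18a1 3 GC boxes and 1 CCAAT, Lamb2 1 SMAD match and Col13a1 1 TATAAA, and Col15a1 held none of the motifs. Over the 44 promoter windows of the 40 chains with an entry in the promoter table, GGGCGG was found in 24 (54.5%, against 42.4% of all 22381 windows), CCAAT in 14 (31.8% against 35.3%), TATAAA in 5 (11.4% against 11.4%) and CAGACA in 11 (25.0% against 15.0%). TGTGGT was found in 3 (6.8% against 12.1%), which were those of Col17a1, Col8a1 and the second Col18a1 start, TGANTCA in 1 (2.3% against 6.4%) and CCGGAA in none (0.0% against 15.0%). A match is a description of letters and not a site of binding.

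ATAC-seq, which marks open chromatin, had 2 libraries a group, and the authors deposited 1 peak list a group from both, so presence of a peak has no replicate check. A promoter was counted as open when at least 1 base of a peak lay within 1000 bases of the RefSeq start. Of the 40 chains with a start, 34 (85.0%) had such a peak in E9.5 Ctrl against 77.6% of 15706 genes, 32 (80.0%) in E9.5 1Runx1 against 77.5%, 31 (77.5%) in E13.5 Ctrl against 76.8%, 30 (75.0%) in E13.5 1Runx1 against 77.1%, and 29 (72.5%) in E13.5 2Runx1 against 75.8%. In liver 9 (22.5%) had one in Ctrl and 10 (25.0%) in 2Runx1, against 59.9% of all genes in each list. The embryo counts of chains thus lie near the share of all genes, and the liver counts well under it. The liver lists were also shorter, with 39019 and 39469 peaks against 80857 to 100268 in the embryo.

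In all 7 lists 8 chains had a promoter peak, and these were Col4a1 and Col4a2, which share 1 peak, Col5a1, Col23a1, Col25a1, Col27a1, Lama5 and Lamb2. In none of the lists did Col10a1, Col17a1, Col20a1, Col28a1, Col6a3 or Col6a4 have one. The remaining 26 had one in some lists only, and most of them had it in the embryo and not in liver. Lamb1 and Col18a1, whose RNA was far lower in liver, had a promoter peak in all 5 embryo lists and in neither liver list. Over the whole Lamb1 gene no liver peak was listed, and over Col18a1 there was 1 in each liver list against 12 to 18 in the embryo lists. Col13a1 differed, since its RNA was highest in liver while its promoter peak was likewise listed in the 5 embryo groups and in neither liver group, and 4 and 5 peaks lay elsewhere over the gene in liver. Lamb2 kept a promoter peak in liver, whose middle lay 854 bases from the start in Ctrl, and 2Runx1 had peaks at 909 and 6 bases. Col6a1 and Col9a1 had a promoter peak at E9.5 alone, although their RNA was higher at E13.5. Other chains with a partial pattern were Col6a6 (E9.5 Ctrl alone), Col6a5 (the E9.5 Ctrl list and all 3 E13.5 lists), Col4a6 (all embryo lists but E13.5 1Runx1), and Col7a1 and Lamb3 (neither E13.5 2Runx1 nor liver). In liver the 2 lists differed in 3 chains, with a Col4a4 peak in Ctrl alone and Col11a1 and Col16a1 peaks in 2Runx1 alone, where the RNA of both was under 1 RPKM. The other chains with a peak in each embryo list and in neither liver list were Col11a2, Col15a1, Col19a1, Col1a2, Col24a1, Col3a1, Col4a5, Col5a3, Col6a2, Col8a1, Col8a2, Col9a2 and Lama2.

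**Figure D3:**
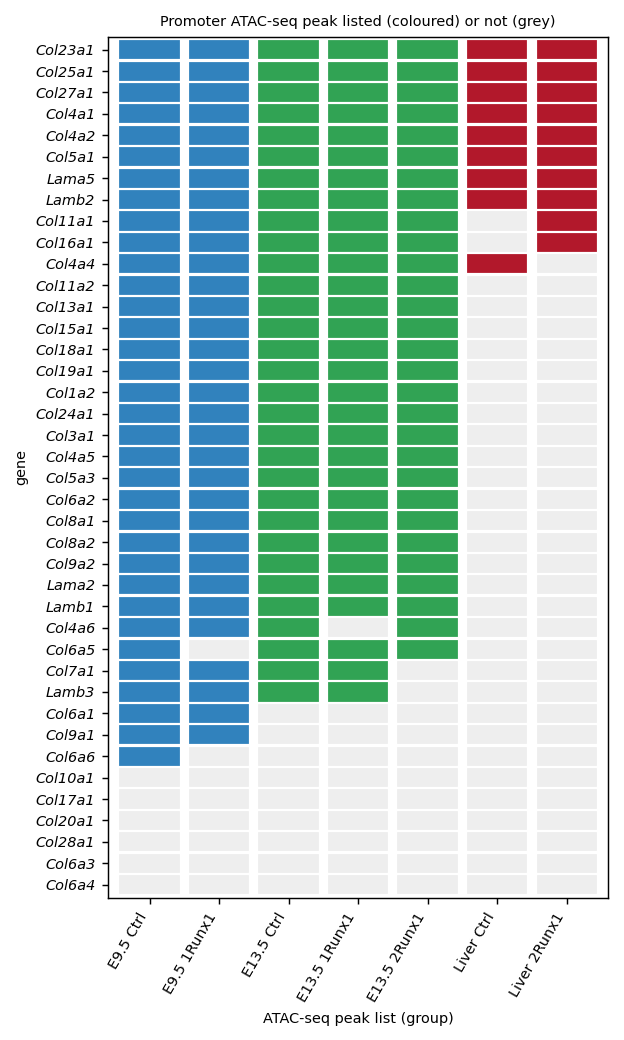
ATAC-seq peaks within 1000 bases of the RefSeq start of the 40 collagen and laminin chains with a start (lines) in the 7 deposited peak lists (columns); blue marks a peak at E9.5, green at E13.5 and red in liver, and grey means that none was listed. Most lines are coloured in the embryo columns and grey in liver, where 9 and 10 of 40 are red.

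At E13.5 the authors also deposited H3K4me1 regions, a histone mark of enhancers, for Ctrl and 2Runx1. A region lay over the gene or the 1000 bases before it for 25 of 40 chains (62.5%) in Ctrl, against 65.0% of all genes, and for 33 (82.5%) in 2Runx1, against 80.7%. The share of chains followed that of all genes in both lists, which held 48795 and 88344 regions. In the labels of the 2Runx1 group, the input and 1 ChIP sample seem to carry each other's description, so the count for that list is in doubt.

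In liver, induction of 2Runx1 went with lower levels of 5 chains and a higher level of 1. Of 33 tested chains 6 were called (18.2%), against 25.3% of all tested genes, 17.1% higher and 8.14% lower, and limma-voom on recovered reads called 6 as well, of which 5 were the same, with Col13a1 in place of Col23a1. The median log2 difference of the chains was -0.03 and that of all genes 0.02. The share of chains called lay below the background.

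Lamb1, already the minor beta chain in liver, was at 1.04 and 1.15 RPKM (192 and 220 recovered reads) in Ctrl and at 0.425 and 0.462 (88 and 86 reads) in 2Runx1. It fell by 0.54 on the log2(RPKM + 1) scale (SE 0.08, limma adjusted p = 0.000998) and was the 1 chain of the 6 called in each alternative that was run. Lama3 fell from 2.54 and 2.1 RPKM to 1.3 and 1.37 (-0.51 ± 0.10, adjusted p = 0.00468), and with a pseudocount of 0.1 RPKM it was not called (adjusted p = 0.0822). Col3a1 fell from 10.6 and 8.77 RPKM to 5.18 and 5.68 (-0.73 ± 0.17, adjusted p = 0.0101). It was not called without Ctrl replicate 1 (adjusted p = 0.0905) or 2Runx1 replicate 1 (0.0744). Col14a1 fell from 2.37 and 2.72 RPKM to 1.75 and 1.21 (-0.52 ± 0.14, adjusted p = 0.0216), and was not called without Ctrl replicate 1 (adjusted p = 0.057), Ctrl replicate 2 (0.127) or 2Runx1 replicate 2 (0.172). Lama4 fell from 54.6 and 51.2 RPKM to 44.3 and 40.2 (-0.32 ± 0.10, adjusted p = 0.0403), and Col23a1 rose from 0.673 and 0.508 to 1.13 and 1.09 (0.41 ± 0.12, adjusted p = 0.0252). These last calls were lost whichever of the 4 liver libraries was left out, with adjusted p from 0.0699 to 0.227 for Lama4 and from 0.0506 to 0.151 for Col23a1. Each of the 4 omissions left 3 chains called.

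The chains of highest level in liver were not called. Col4a1 was at 408 and 376 RPKM in 2Runx1 (0.17 ± 0.09, limma adjusted p = 0.219), Col4a2 at 273 and 246 (0.22 ± 0.09, adjusted p = 0.0916) and Col13a1 at 186 and 179 (0.27 ± 0.13, adjusted p = 0.145). Col13a1 was called higher by limma-voom (0.28, adjusted p = 0.0196) and with only the stages compared in the fit (0.27, adjusted p = 0.0096), and Col4a2 with a replicate block (0.22, adjusted p = 0.0366). Lamb2 (0.09), Lamc1 (0.09) and Col1a1 (-0.27 ± 0.28) did not pass either, and Col18a1 (-0.11) and Col15a1 (-0.05) stayed at their low liver levels. Col18a1 was called without Ctrl replicate 1 alone (-0.22, adjusted p = 0.0463). Of all tested genes, 17.1% were higher and 8.14% lower. Markers of mesenchyme and fibroblasts went both ways, with 2 of the 12 higher and 3 lower (median -0.10). Their sum was 85.7 and 85.5 RPKM in liver Ctrl and 52.5 and 58.2 in 2Runx1, of which Dcn held 62.8 and 63.2 against 26.5 and 30.6. Twist1 rose from 11.5 and 11.5 RPKM to 19.7 and 21.6, and the sum without Dcn was 23.0 and 22.3 against 26.0 and 27.5. The 7 stellate cell markers summed to 45.5 and 43.2 against 32.0 and 31.2. Of the 6 tested, 0 were higher and 3 lower (50.0% called, against 25.3% of all genes), Lrat among them (-0.80). Their part in the lower levels of Col3a1, Col14a1, Lama3, Lama4 and Lamb1 was not tested.

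Among genes that act on the chains, 10 of the 24 tested enzymes and chaperones rose and 2 fell with 2Runx1 (50.0%, against 25.3% of all genes). Serpinh1 went from 69.8 and 71.6 RPKM to 179 and 170.0 (1.29 ± 0.05, limma adjusted p = 7.44e-08). Loxl4, a lysyl oxidase that crosslinks collagen, rose by 0.73 and P3h2, a prolyl 3-hydroxylase, by 0.62, while the lysyl oxidase Loxl2 fell by 0.87. Of 20 partners 2 rose and 4 fell (30.0%, near the share of all genes), with Nid2, nidogen 2, at 0.53, Bgn, biglycan, at 0.25, Dcn at -1.12 and Ntn4 at -0.72. Of 11 receptors 2 rose and 2 fell (36.4%), with Itga6 at 0.69, Itgb1, the common integrin beta 1 chain, at 0.16, Ddr2, a receptor of fibrillar collagen, at -0.43 and Sdc1, syndecan 1, at -0.27. Of 16 TGF-beta target genes outside the chains 2 rose and 3 fell (31.2%), with Loxl2 at -0.87, Postn at -0.57, Tgfbi at 0.56 and Pmepa1 at 0.53.

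At E9.5 no chain was called with 1Runx1, where 1.19% of all genes were (limma, 0 of 33). At an unadjusted p below 0.05 there were 3 chains, all lower, where 12% of all genes had such a p, so that 3 of 33 is no more than the background. By limma-voom 0 were called. Col15a1 went from 14.0 and 13.8 RPKM to 11.5 and 9.55 (-0.37 ± 0.12, adjusted p = 0.214), Lama3 from 0.504 and 0.561 to 0.337 and 0.205 (-0.27 ± 0.10, adjusted p = 0.321), and Lama4 from 57.2 and 55.2 to 48.1 and 45.5 (-0.26 ± 0.10, adjusted p = 0.333). The 1Runx1 libraries lay below both Ctrl libraries for these 3 genes, but none passed the adjusted test. Col4a1 (-0.11 ± 0.09), Lamb1 (-0.09 ± 0.08) and Lamc1 (-0.12 ± 0.08) had 95% intervals that held 0. The median of the chains was -0.09 and that of all genes 0.01. Among the other lists, 1 of 20 partners rose, Npnt, nephronectin (1.07, adjusted p = 0.000603), and none of the 24 enzymes was called.

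At E13.5 with 1Runx1 no chain was called (0 of 33) against 10.4% of all genes. At an unadjusted p below 0.05 limma gave 3 chains against 28.1% of all genes, Lamb2 higher (0.29) and Col3a1 (-0.53) and Col6a2 (-0.43, adjusted p = 0.0627) lower, and limma-voom called 1, Col6a2 (-0.6, adjusted p = 0.0225). With 2Runx1 no chain was called (0 of 33) against 0.271% of all genes. There limma gave 2 at an unadjusted p below 0.05 against 13.1% of all genes, Lama1 (0.50) and Col14a1 (0.44), and limma-voom called 0. Between 2Runx1 and 1Runx1 no chain was called (0 of 33) against 5.33%, with 1 at an unadjusted p below 0.05 against 23.5% of all genes, Col6a2 (0.25), and 0 by limma-voom. In all 3 comparisons the chains thus passed no more often than genes at large. The medians of the chains were 0.06, 0.11 and 0.07, and those of all genes 0.02, 0.02 and -0.01. Among the lists, 3 of 20 partners rose with 1Runx1, Npnt (1.14), Sparc (0.27) and Egfl7 (0.24), and of the 24 enzymes Serpinh1 rose (0.4) and P4ha3, Lox and Tll1 fell. None of these partners and enzymes was called with 2Runx1 against Ctrl.

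**Figure D4:**
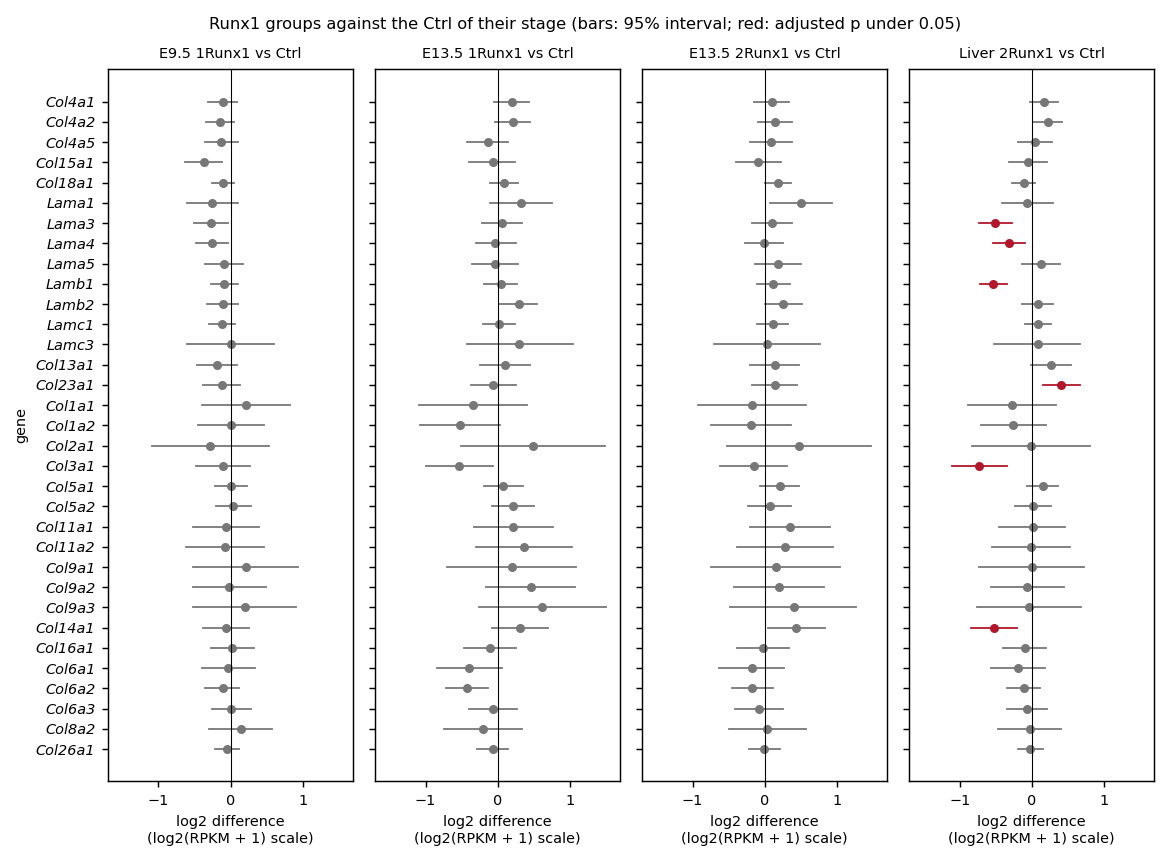
Differences of the 33 tested chains on the log2(RPKM + 1) scale between each Runx1 group and the Ctrl of its stage, with points for the estimates and bars for 95% intervals; red marks an adjusted p below 0.05. Red appears in the liver panel alone, on Lamb1, Lama3, Lama4, Col3a1, Col14a1 and Col23a1, and the widest intervals are those of the cartilage-type chains at E13.5.

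The 2 E13.5 1Runx1 libraries differed from each other in the cartilage-type chains. Col2a1 was at 11.4 RPKM in Ctrl, 9.61 and 27.3 in 1Runx1 replicates 1 and 2, and 14.9 and 17.7 in 2Runx1. Col9a3 was at 6.24, at 6.0 and 16.7, and at 7.12 and 10.2 RPKM, and Col9a1 was at 3.58, at 2.25 and 7.5, and at 3.97 and 4.21. Replicate 2 of 1Runx1 was the highest E13.5 library for each of Col2a1, Col9a1, Col9a2, Col9a3, Col11a1 and Col11a2, and replicate 1 was the lowest for each. Among the 6 cartilage markers, Matn1, Cnmd, Acan and Comp were also highest in replicate 2 of 1Runx1. Matn1 was at 1.44 in Ctrl, 2.08 and 6.04 in 1Runx1 and 1.51 and 2.69 in 2Runx1. Cnmd was at 3.86, at 4.67 and 10.2, and at 4.25 and 4.93. Unlike the chains, Matn1 and Cnmd were higher in replicate 1 than in Ctrl. Hapln1 (24.5 and 25.0 in 1Runx1) and Sox9 (1.46 and 2.94) were highest in a 2Runx1 library, at 32.1 and 3.03. The sum of the 6 markers was 29.1, then 34.8 and 47.4, then 30.5 and 44.4 RPKM. Without 1Runx1 replicate 1, all 6 of these chains were called higher than Ctrl, by 0.64 (Col11a1) to 1.29 (Col9a3), and without replicate 2 none of them was. Between 2Runx1 and 1Runx1, Col9a1 was called lower without replicate 1 (-0.74, adjusted p = 0.026) and higher without replicate 2 (0.65, adjusted p = 0.0492), so its sign hung on the library left out. The part of cartilage cells in these values was not tested.

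**Figure D5:**
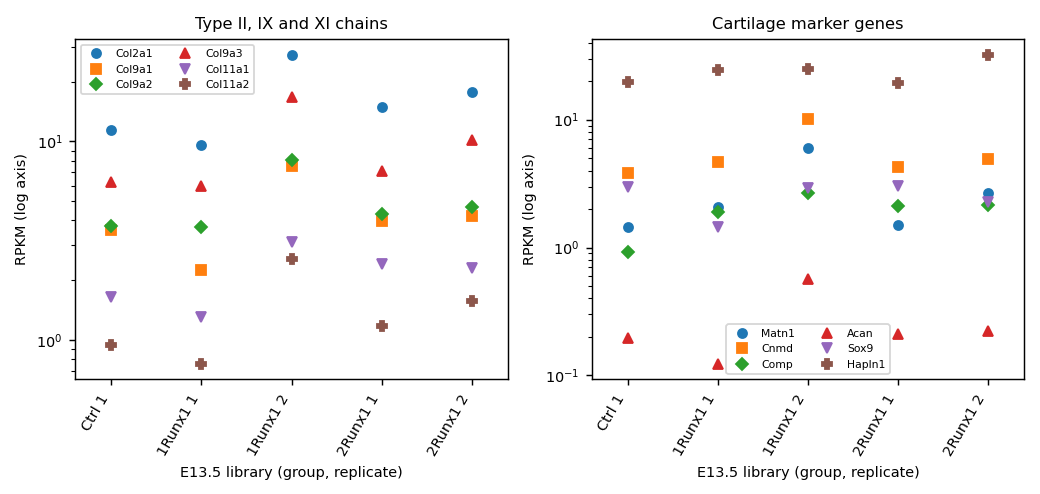
RPKM on a log axis in the 5 E13.5 libraries of the chains of types II, IX and XI (left) and of 6 cartilage marker genes (right), 1 symbol a gene. In the left panel the second 1Runx1 library is highest for each chain, with Col2a1 at 27.3 against 9.61 in the first.

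Lamc3, the gamma 3 chain, varied between the same libraries in the other direction, with 0.688 RPKM in Ctrl, 2.02 and 0.437 in 1Runx1, and 1.01 and 0.468 in 2Runx1. Without 1Runx1 replicate 2 it was called higher than Ctrl (0.84, limma adjusted p = 0.0277) and lower in 2Runx1 than in 1Runx1 (-0.81, adjusted p = 0.0309), when Col11a1 (0.54, adjusted p = 0.0273) and Col8a2 (0.61, adjusted p = 0.0438) were called higher in 2Runx1. The pericyte and smooth muscle markers summed to 40.9 RPKM in 1Runx1 replicate 1, against 21.1 to 29.2 in the other E13.5 libraries. They did not move together. That library was the highest of E13.5 for Rgs5 (11.6) and Kcnj8 (11.8) but the lowest for Acta2 (2.71) and Tagln (2.14). Of 7 tested markers 0 were higher and 1 lower with 1Runx1 than in Ctrl, where 10.4% of all genes were called. The part of these markers in the Lamc3 level was not tested. Without 1Runx1 replicate 1, Col11a2 (-0.59, adjusted p = 0.0268), Col9a2 (-0.73, adjusted p = 0.00882) and Col9a3 (-0.89, adjusted p = 0.0171) were called lower in 2Runx1 than in 1Runx1. Without 2Runx1 replicate 2, Col3a1 was called higher in 2Runx1 than in 1Runx1 (0.65, adjusted p = 0.0335). Differences in Col2a1, Col9a1 and Lamc3 between the E13.5 groups were thus not larger than the spread between the 1Runx1 libraries.

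Whether the effect differed with stage was tested directly. The groups compared also differed in Runx1 RNA. In 2Runx1 it was at 22.7 and 25.2 RPKM at E13.5 and at 78.1 and 78.4 in liver. In 1Runx1 it was at 14.9 and 16.2 at E9.5 and at 28.9 and 23.7 at E13.5. Stage and Runx1 level thus cannot be told apart in these tests. The 1Runx1 effect at E13.5 against that at E9.5 was called for no chain (0 of 33), against 2.26% of all genes, with 3 at an unadjusted p below 0.05 (limma) against 19.9% of all genes, and 0 by limma-voom. Without E13.5 1Runx1 replicate 1 there were 4, namely Col11a2 (0.96), Col11a1 (0.70), Col9a2 (0.95) and Col9a3 (1.1). The 2Runx1 effect in liver was lower than that at E13.5 for 3 of 33 chains (9.09%), Lamb1 (-0.66 ± 0.13, adjusted p = 0.0106), Col14a1 (-0.96 ± 0.23, adjusted p = 0.0217) and Lama3 (-0.61 ± 0.16, adjusted p = 0.0376), against 11.1% of all genes, of which 2.89% were lower. Lamb1 in E13.5 2Runx1 was at 82.7 and 68.2 RPKM beside 68.8 in Ctrl, where no fall was called (0.12 ± 0.10). Lama3 in E13.5 2Runx1 was at 0.117 and 0.228 RPKM beside 0.0921 in Ctrl. It passed the filter through liver alone, and its E13.5 effect was held near 0 by these low levels. The Lamb1 call held without any 1 library. Col14a1 lost its call without liver Ctrl replicate 2 (adjusted p = 0.0662) or 2Runx1 replicate 2 (0.077), and Lama3 without E13.5 2Runx1 replicate 2 (0.0756), liver Ctrl replicate 1 (0.113), 2Runx1 replicate 1 (0.0917) or 2Runx1 replicate 2 (0.0817). Calls gained in this test were Lama1 (-0.81, adjusted p = 0.0302) without E13.5 2Runx1 replicate 1, Col3a1 (-0.85, adjusted p = 0.03) and Lama4 (-0.50, adjusted p = 0.0149) without E13.5 2Runx1 replicate 2, and Col18a1 (-0.40, adjusted p = 0.0302) without liver Ctrl replicate 1.

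Of the 22 chains below the filter, fitted without it, 3 were called in a comparison of Runx1 groups, all at low levels. Over all comparisons 14 of the 22 were called at least once, and those beyond the 3 were called between Ctrl stages only. Col4a3 differed by 0.73 for liver against E9.5, and Col12a1 by -0.81 for liver against E13.5. The share of all genes called in this fit was not counted, so these counts have no background beside them. Col28a1, a beaded filament chain, was higher in E13.5 1Runx1 than in Ctrl (0.19) and lower in 2Runx1 than in 1Runx1 (-0.21). In liver 2Runx1, Col6a5 was lower (-0.11) and Col4a4 higher (0.16). These chains were near 0 RPKM, and a difference of this size on the log2(RPKM + 1) scale is small in RPKM. Others below the filter included Col5a3, Col24a1 and Col27a1 (fibrillar), Col4a3 and Col4a6 (basement membrane network), Col6a4 and Col6a6 (beaded filament), Col7a1 (anchoring fibril), Col8a1 and Col10a1 (hexagonal network), Col12a1, Col19a1, Col20a1 and Col22a1 (fibril-associated), Col17a1 and Col25a1 (transmembrane), and the laminin chains Lama2 and Lamb3.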

How the data were processed

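RNA-seq, ATAC-seq and H3K4me1 ChIP-seq of sorted mouse endothelial cells were used as deposited. Per the submitters' processing notes, the tools named, without order, include STAR 2.7.3a, Subread 2.0.0 and edgeR for RNA, and MACS2 2.1.4, Bowtie2 2.3.5.1 and SAMtools 1.1 for peaks, on mm10 or GRCm38. The deposited RNA values are RPKM. In the peak lists deposited by the authors, 1 per group with replicates combined, each peak has a display score, a fold enrichment (a ratio), a −log10 q value and a summit offset.

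Whole reads were recovered from the RPKM steps (tolerance 0.001 of a read) for 100% of the 20720 genes above 0, and so came to 37754246 to 44540403 reads a library. The RPKM carry a scaling beyond the read total of 0.828 to 0.844 in liver libraries and 1.026 to 1.129 in embryo libraries, where a lower value raises RPKM. It follows stage, so differences between liver and embryo include this scaling. The main test was limma 3.58.1 (R 4.3.3) on log2(RPKM + 1), pseudocount 1, for the 12546 genes with RPKM of at least 1 in at least 2 libraries, with 7 group means over 13 libraries, trended variance and Benjamini-Hochberg adjustment per comparison (threshold 0.05). Differences on this scale understate the change of low genes. Alternatives were a pseudocount of 0.1, no filter, quantile normalization, limma-voom on recovered reads, only the stages compared, a replicate block and leaving out each library. The read recovery and the fit were tested on simulated data. Peaks were joined to RefSeq starts (1000 bases on either side), for 40 of 55 chains. The members and lists were chosen with earlier results of these data known. Named were all called members, or the 12 largest in a direction where more were called, 13 basement membrane and interstitial chains, the 10 of highest mean RPKM, members whose promoter peak was in some lists, and at most 4 called genes of another list; others are named with their call changes. Coordinates are 1-based in GRCm38. Of the 22 chains below the filter, 1 is not reported here.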

Additional observations from a re-analysis of the deposited data

Results flagged for a closer look

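The response to 2Runx1 differed between liver and E13.5 in 3 of 33 chains (9.09%) by the interaction term in limma, against 11.1% of all genes. Lamb1, the laminin beta 1 chain, fell in liver (-0.54) and was not called at E13.5 (0.12), a difference of -0.66. Col14a1, a fibril-associated collagen, fell in liver (-0.52) and was at 0.44 at E13.5, where it was not called, a difference of -0.96. Lama3, the laminin alpha 3 chain, fell in liver (-0.51), and the difference between the stages was -0.61. It passed the filter through liver alone and was at 0.0921 RPKM in E13.5 Ctrl and at 0.117 and 0.228 in E13.5 2Runx1. At such levels the log2(RPKM + 1) scale holds its E13.5 effect near 0, so the test cannot tell whether the response differed with stage. The Lama3 call was lost with a pseudocount of 0.1 (adjusted p = 0.122), limma-voom (0.131), only the stages compared (0.0805) and the replicate block (0.0552), and the Col14a1 call with no filter (0.0601) and only the stages compared (0.0626). The E13.5 effects rest on the single Ctrl library of that stage. Runx1 RNA was also higher in liver 2Runx1 (78.1 and 78.4 RPKM) than in E13.5 2Runx1 (22.7 and 25.2). No group of RNA-seq libraries was large enough for a check for outlying libraries.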

How the results depend on the processing

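Of 90 differences of chains called by limma, none changed sign in the 792 values recomputed under the alternatives, and 706 kept their side of the threshold while 86 did not. With no library left out, 502 of 540 kept it. The replicate block changed 2 of its 90 values, and library numbers did not pair the libraries (correlations of -0.06, -0.05 and 0.11). It left 26 chains called between E13.5 and E9.5 Ctrl (27 without the block) and 7 for 2Runx1 in liver (6 without), where it added Col4a2. Chains called with 1Runx1 at E13.5 numbered 1 with no filter and 1 with limma-voom, against 0, and between 2Runx1 and 1Runx1 there was 1 with no filter. For the 2Runx1 effect in liver against E13.5 there was 1 with only the stages compared, against 3. Leaving out single libraries gave 1 to 6 chains for 1Runx1 at E13.5, 0 to 4 between 2Runx1 and 1Runx1, 3 to 3 for 2Runx1 in liver, 0 to 4 for the 1Runx1 effect between stages and 1 to 4 for the 2Runx1 effect between stages. The cause of these changes was not tested. With quantile normalization the share of higher calls over all genes fell from 67.8% to 54.9% for 2Runx1 in liver, while the chains called there were 0 higher and 4 lower, against 1 and 5. H3K4me1 regions with −log10 q of at least 5 lay over 5 chains in 2Runx1, against 33, and the Ctrl list gave no value there. Depth limits the liver values of Col15a1, Col26a1 and Col2a1, which rest on few reads.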
